A study of Mus musculus with 6 samples.

Results

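The interleukin-1 (IL-1) system was examined in mouse liver tumors through 9 genes, of 34099 genes counted. They were taken as a family by name and known role: the ligand genes Il1a, Il1b and Il18, the antagonist gene Il1rn, the receptor genes Il1r1, Il1r2 and Il1rap, and the inflammasome genes Nlrp3 and Casp1. Tumor tissue came from 3 control mice and 3 stress mice, with 1 single-cell RNA sequencing library per mouse. All were wild-type male C57BL/6J mice, 8 weeks of age, and all carried H22 tumors. H22 is a murine hepatocellular carcinoma (HCC) line that had been passaged as ascites and was implanted into the left liver lobe. Stress mice had gone through chronic unpredictable mild stress for 21 days before implantation, and control mice received the same tumor cells without stressors. Every tumor therefore grew from 1 transplanted cell line and not from the liver of the mouse.

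IL-1α and IL-1β are inflammatory cytokines that act through the same receptor, IL-1R1. A bound receptor recruits the accessory chain IL-1RAP, which starts signaling to NF-κB. The pathway is braked at the receptor by the antagonist encoded by Il1rn, which binds IL-1R1 without recruiting the accessory chain, and by IL-1R2, a decoy that binds the ligand but cannot signal. IL-1β and IL-18 are made as inactive precursors. They are cut by caspase-1, the product of Casp1, inside inflammasomes, protein assemblies whose best known sensor is NLRP3. RNA counts show the transcripts of these genes and not the cutting or release of the proteins. In liver tumors, myeloid cells are known as a main source of IL-1β, and endothelial cells (ECs) as cells that respond to it.

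The genes lie in several places in the mouse genome (GRCm38, GENCODE M21). Il1a (chr2:129299610-129309972) and Il1b (chr2:129364570-129371139) are neighbors on the minus strand of chromosome 2, and Il1rn (chr2:24336853-24351494) is on the plus strand of that chromosome. Il1r2 (chr1:40074079-40125231) and Il1r1 (chr1:40225080-40317257) lie side by side on the plus strand of chromosome 1. Il1rap (chr16:26581704-26730117), Il18 (chr9:50554827-50581840), Casp1 (chr9:5298517-5307265) and Nlrp3 (chr11:59541568-59566956) are also on the plus strand. Antisense genes overlap Il1b (Il1bos), Il1r2 (Gm16894) and Il1rap (Gm20319). On the opposite strand Gm14023 also overlaps Il1a, and Bco2 and Tex12 overlap Il18. On the same strand Gm38070 overlaps Il1r1 and Gm37347 overlaps Il1r2. The strand setting used for counting is not given in the sources used here, so reads of these pairs cannot be told apart.

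The promoters of Il1b, Il1a and Il1rn are shown because these 3 genes were high in the same myeloid cells. Each is the RefSeq window of 300 bases (GRCm38.p6), from 250 bases before the transcription start to 50 bases after it, on the strand of the gene. Capitals mark matches on either strand to short motifs. The TATA box was searched as TATAAA. AP-1 was searched as TGANTCA. NF-κB was searched as GGG and CC with any 5 bases between them. The Il1b window is chr2:129371090-129371389, the Il1a window chr2:129309923-129310222 and the first Il1rn window chr2:24336610-24336909.
Il1b: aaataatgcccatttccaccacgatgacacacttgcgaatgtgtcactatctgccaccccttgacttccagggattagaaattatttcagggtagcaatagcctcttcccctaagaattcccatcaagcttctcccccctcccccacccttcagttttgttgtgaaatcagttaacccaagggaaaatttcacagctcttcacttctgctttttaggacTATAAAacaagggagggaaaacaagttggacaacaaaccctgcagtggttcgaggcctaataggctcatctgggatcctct
Il1a: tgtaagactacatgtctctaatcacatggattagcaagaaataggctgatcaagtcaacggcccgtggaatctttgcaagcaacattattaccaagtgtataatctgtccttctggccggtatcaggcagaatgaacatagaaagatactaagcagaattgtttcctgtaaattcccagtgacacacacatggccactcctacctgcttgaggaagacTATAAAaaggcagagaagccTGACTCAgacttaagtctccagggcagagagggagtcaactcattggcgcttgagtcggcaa
Il1rn: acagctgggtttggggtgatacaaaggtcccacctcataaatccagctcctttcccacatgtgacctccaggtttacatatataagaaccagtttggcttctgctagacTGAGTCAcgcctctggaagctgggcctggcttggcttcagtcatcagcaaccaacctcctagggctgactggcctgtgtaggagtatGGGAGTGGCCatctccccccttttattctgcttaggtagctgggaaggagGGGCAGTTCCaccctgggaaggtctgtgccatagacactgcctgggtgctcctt
The Il1b window held TATAAA from base 220, and the Il1a window held it from base 219 and an AP-1 match from base 239. The first Il1rn window held an AP-1 match from base 110 and 2 NF-κB matches, and no TATAAA. Of the Il1rn windows not printed, chr2:24345041-24345340 held an NF-κB match from base 280. The overlapping window chr2:24345121-24345420 held an NF-κB match from base 200. It also held TATAAA on the opposite strand from base 265. Of 32851 promoter windows of this length, 13.6% held TATAAA, 7.81% the AP-1 letters and 50.8% the NF-κB letters, so the last are common. The same windows were also searched for CRE as TGACGTCA. C/EBP was searched as TTGCNNAA. IRF was searched as GAAA followed, after any 2 bases, by GAAA. None of the 3 printed windows held any of them. A match is a run of letters and not evidence of binding.

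The study's annotation placed 58794 cells of 61374 barcodes in 10 cell types and 28 clusters, with 149558935 to 187728350 unique molecular identifiers (UMIs, tags that mark single captured RNA molecules) per mouse. Levels are given as CPM, the UMIs of a gene per 1000000 UMIs of the same cells, summed per mouse and cell type. This 3′ counting has no gene-length term, so CPM of different genes were comparable only as numbers of captured molecules. HSCs (6 to 50 cells per mouse) and neutrophils (4 to 57) were too few for tests. Control libraries were counted with Cell Ranger 9.0.0 and stress libraries with 7.1.0, and a difference made by the version cannot be told apart from one made by stress. A total of 386 barcodes occurred in more than 1 mouse (778 cells, 1.32%). The labels were checked against marker genes. The cells labelled inflammatory myeloid cells carried neutrophil transcripts, and of 10 neutrophil markers Csf3r, Cxcr2, G0s2 and Hdc were highest in them (500.3, 154, 6813 and 1005 CPM on average). The other 6, such as S100a8 (4671 to 10650 CPM here, against 65380 CPM), were highest in the cells labelled neutrophils, as were the neutrophil precursor genes Camp, Ngp and Ltf. Mpo of the precursor list was highest in B cells (48.6 CPM). The inflammatory myeloid cells also carried the chemokine transcript Cxcl2 (22020 to 46060 CPM) and little of the macrophage genes Csf1r and C1qa (14.2 and 5.77 CPM on average), while cells labelled ECs carried Pecam1 (588 CPM). Of the monocyte and macrophage markers, Ly6c2 was highest in neutrophils (729 CPM on average). The others, such as C1qa and C1qb (799 and 668 CPM on average) and Ccr2 (179 CPM), were highest in cells labelled monocytes. That label is used here for all of these cells. Among the 350 cells labelled M-MDSCs, 63.4% were called doublets. Of the M-MDSC markers, Arg1 and Nos2 were highest in monocytes and Spp1 in HSCs. The basophil and mast cell genes Mcpt8, Cpa3 and Ms4a2 were highest in cells labelled M-MDSCs (20.3, 6.57 and 4.93 CPM). Values of M-MDSCs are given with these limits.

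Il1b was by far the most captured transcript of the 9, with 362967 UMIs. Il1r1 followed with 77866, Il1rn with 43003, Nlrp3 with 42543, Il1a with 40076, Il1rap with 33573 and Il1r2 with 21139. Casp1 (2902) and Il18 (2738) were sparse. The ligands, the antagonist and the sensor were highest in myeloid cells, whereas the signaling receptor Il1r1 was highest in ECs. The cell types below are ordered by their mean over the 6 mice, among the 8 types with enough cells for tests. This order describes the tissue and was not tested.

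Il1b reached 3116, 9510 and 5717 CPM in inflammatory myeloid cells of control mice 1, 2 and 3, and 5446, 9176 and 8968 CPM in those of stress mice 1, 2 and 3. Inflammatory myeloid cells (6989 ± 2610 CPM, SD, n = 6 mice) lay above monocytes (4313 ± 2139 CPM) in 6 of 6 mice, 1.62-fold on average, although the ranges over mice overlapped. DCs (1264 CPM) and M-MDSCs (437 CPM) followed, again in the same order in each mouse. The remaining types were far lower, at 95.3 CPM in ECs, 67.1 in NK/T cells, 60.2 in B cells and 13.5 in tumor cells, and ECs, NK/T cells and B cells overlapped. Il1b was thus a transcript of the myeloid compartment.

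Il1a, the other IL-1 ligand, was carried by the same myeloid cells but also by ECs. Inflammatory myeloid cells (609 ± 331 CPM) and monocytes (501 ± 218 CPM) did not differ in order, with 3 of 6 mice each way. ECs held 105, 77.9 and 100 CPM in control mice and 81.3, 74.8 and 67.3 CPM in stress mice. Monocytes were 5.94-fold above ECs with no overlap. DCs (48.1 CPM) and M-MDSCs (35.0 CPM) overlapped with ECs, and tumor cells held 2.11 CPM.

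Il18, whose product is matured by caspase-1 as IL-1β is, was low. Monocytes held 20.4, 22.5 and 29.7 CPM in control mice and 23.9, 24.4 and 18.5 CPM in stress mice. Inflammatory myeloid cells averaged 16.2 CPM but ranged from 2.62 to 34.5 CPM, so that the order of these cell types was not settled (3 of 6 mice each way). DCs averaged 6.92 CPM and tumor cells 1.60 CPM.

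Il1rn, the antagonist, followed Il1b with a steeper step between the myeloid types. Inflammatory myeloid cells held 332, 1709 and 935 CPM in control mice and 1170, 1349 and 2379 CPM in stress mice. Their mean (1312 ± 696 CPM) was 3.96-fold that of monocytes (332 ± 174 CPM), and they were higher in 6 of 6 mice with overlapping ranges. M-MDSCs (83.9 CPM) and DCs (70.1 CPM) came next and overlapped, and ECs held 14.2 CPM.

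Il1r1, the signaling receptor, was a transcript of ECs. ECs held 672, 1022 and 860 CPM in control mice and 984, 1064 and 1233 CPM in stress mice (973 ± 191 CPM, n = 6). That was 51.6-fold the mean of the next tested type, monocytes (18.8 CPM), in 6 of 6 mice and without overlap, and 105-fold without called doublets (1298 against 12.3 CPM). From monocytes down, through inflammatory myeloid cells (13.2 CPM), NK/T cells (11.4), DCs (9.53) and B cells (7.82) to tumor cells (4.79), each neighbor overlapped the next. HSCs, with few cells, ranged from 25.9 to 329 CPM, below ECs and overlapping at their lowest with monocytes (up to 28.0 CPM). In the 4 mice with at least 10 HSCs they were at 99.2 to 329 CPM, above all monocyte values.

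Il1rap, the co-receptor, was highest not in ECs but in inflammatory myeloid cells, at 146, 517 and 336 CPM in control mice and 377, 570 and 564 CPM in stress mice. This was 7.70-fold above M-MDSCs (54.3 CPM) with no overlap, and monocytes (50.8 CPM) followed among the tested types. The few neutrophils ranged from 21.4 to 332 CPM. Below monocytes, DCs held 30.3 CPM, tumor cells 26.1 ± 2.50 CPM, NK/T cells 25.1 CPM, ECs 23.7 ± 2.67 CPM and B cells 15.4 CPM, and neighbors in this order overlapped. Without called doublets, Il1rap in ECs was 13.7 to 21.3 CPM, below the 22.55 to 28.85 CPM of tumor cells in every mouse.

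Il1r2, the decoy receptor, was again highest in inflammatory myeloid cells, at 548, 1015 and 1020 CPM in control mice and 427, 837 and 831 CPM in stress mice (780 ± 244 CPM). Among the tested types DCs came next (181 CPM), 4.31-fold lower and with no overlap, while the few neutrophils ranged from 107 to 602 CPM and overlapped with inflammatory myeloid cells. DCs were above monocytes (90.1 CPM) in 6 of 6 mice with overlapping ranges. Without called doublets DCs were at 386 CPM (263 to 547 CPM), 2.57-fold below inflammatory myeloid cells (990.4 CPM) and with no overlap with monocytes (72.0 to 144 CPM). M-MDSCs held 57.3 CPM, NK/T cells 35.7 CPM, ECs 15.6 CPM and tumor cells 1.33 CPM.

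The inflammasome genes did not share a pattern. Nlrp3, the sensor, averaged 1026 ± 403 CPM in inflammatory myeloid cells and 498 ± 130 CPM in monocytes, higher in the former in 6 of 6 mice, and monocytes were 4.24-fold above DCs (118 CPM) without overlap. Casp1, the protease, was at 24.04 ± 7.42 CPM in monocytes, 20.1 ± 7.15 CPM in NK/T cells, 12.0 ± 8.48 CPM in inflammatory myeloid cells, 11.4 ± 2.22 CPM in ECs and 10.7 ± 4.19 CPM in DCs. Of these Casp1 levels, all neighbors in the order overlapped. Tumor cells held 0.149 CPM of Casp1, with 119 UMIs over all mice, so cells of the tumor line carried little of the protease transcript. Where Nlrp3 was highest, Casp1 was not.

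**Figure D1:**
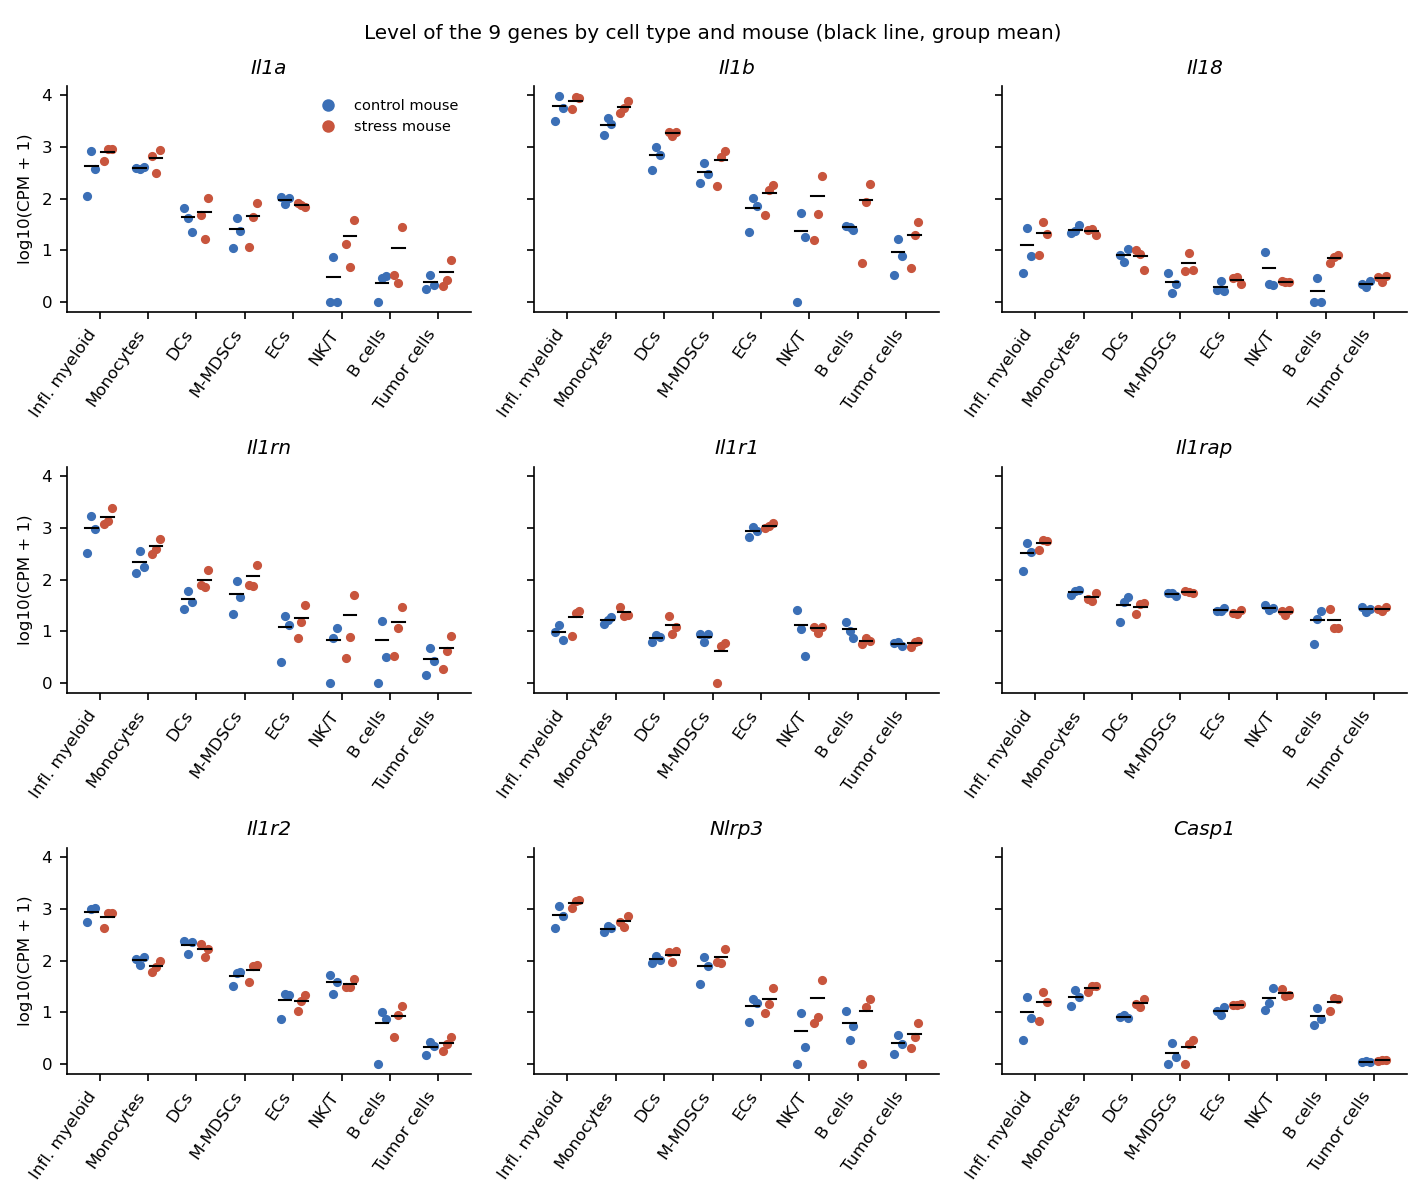
Level of each of the 9 genes (CPM, log axis) in the 8 tested cell types, 1 point per mouse, control and stress mice in separate colors, with a black line at the group mean. Il1r1 stands out in ECs, at 672 to 1233 CPM, while Il1b, Il1rn, Nlrp3 and Il1r2 are highest in the myeloid types.

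A high level per cell type does not say where most molecules are, because cell types differ in cell number and in RNA per cell. Monocytes (6260 cells) held 54.1 ± 14.2% of the Il1b UMIs of a mouse (SD, n = 6), inflammatory myeloid cells (6307 cells) 32.4 ± 17% and DCs (1556 cells) 6.33%. In control mice the mean shares were 42.2% in monocytes and 46.4% in inflammatory myeloid cells, and in stress mice 66.1% and 18.5%. These shares follow the number of captured cells of each type as well as the level per cell, and they were not tested. For Il1rn the means were 56.7% in inflammatory myeloid cells and 29.5% in monocytes of control mice, and 37% and 47.7% in stress mice, although in stress mouse 3 inflammatory myeloid cells held more (48.9%, against 38.6%). For Nlrp3 monocytes held more in both groups (45.7 and 58.1%, against 39% and 27.1% in inflammatory myeloid cells).

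ECs (11433 cells) held 92.2 ± 1.84% of the Il1r1 UMIs, between 88.6 and 93.8% in each mouse, and tumor cells 5.77%. ECs also held Il1a, at 29.5 ± 16% of its UMIs in control mice and 14.8 ± 8.01% in stress mice, against 20.9 ± 12% and 17.2 ± 5.5% in inflammatory myeloid cells and 42 ± 4.3% and 60.8 ± 3.1% in monocytes (SD, n = 3 each). Tumor cells (29638 cells), with low CPM but many UMIs per cell, held 67.1 ± 16.1% of the Il1rap UMIs and 51.1% of the Il18 UMIs. Casp1 was spread, with 43.1% in ECs and 30.4% in monocytes of control mice, 28.4% and 37.4% in those of stress mice, and 11.4% in NK/T cells over all mice. Inflammatory myeloid cells held 49.1% of the Il1r2 UMIs, monocytes 17.7% and DCs 13.7%.

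Barcodes that hold RNA of more than 1 cell can carry transcripts of one cell type under the label of another. Doublets were called again on the deposited cells with Scrublet. It calls barcodes by their mixed profile in the same counts, so the shares of a gene in called doublets are partly built in. Whether doublets or free RNA brought these transcripts was not tested. In ECs called doublets were 9.13% of barcodes (1044 of 11433) and held 31.9% of all UMIs, but 86.4% of the Il1b UMIs, 80.3% of the Nlrp3 UMIs and 77.7% of the Il1rn UMIs. By contrast they held 9.76% of the Il1r1 UMIs, 12.6% of the Casp1 UMIs and 17.1% of the Il1a UMIs of ECs, less than their share of all UMIs. Without them, Il1b in ECs was 5.17, 22.9 and 28.2 CPM in control mice and 5.81, 17.1 and 33.9 CPM in stress mice. Il1r1 was then 936, 1429 and 1134 CPM in control mice and 1366, 1472 and 1455 CPM in stress mice, and Il1a was 64.1 to 142 CPM. Il1r1 and Il1a were therefore measured in ECs that were not called doublets, whereas most of the Il1b in ECs was not.

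The reverse held for Il1r1 in myeloid cells. Called doublets were 5.37% of monocytes and held 17.5% of their UMIs, but 51.2% of their Il1r1 UMIs, and between 5.13 and 15.0% of the UMIs of the other 8 genes. In inflammatory myeloid cells, called doublets were 2.27% of barcodes and held 18.8% of UMIs, 51.6% of the Il1r1 UMIs and 1.85 to 6.29% of the others. In DCs, called doublets were 19.9% of barcodes and held 59.0% of all UMIs, 67.1% of the Il1r1 UMIs, 63.0% of the Il1a UMIs, 30.7% of the Il1b UMIs and 9.25% of the Il1r2 UMIs.

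**Figure D2:**
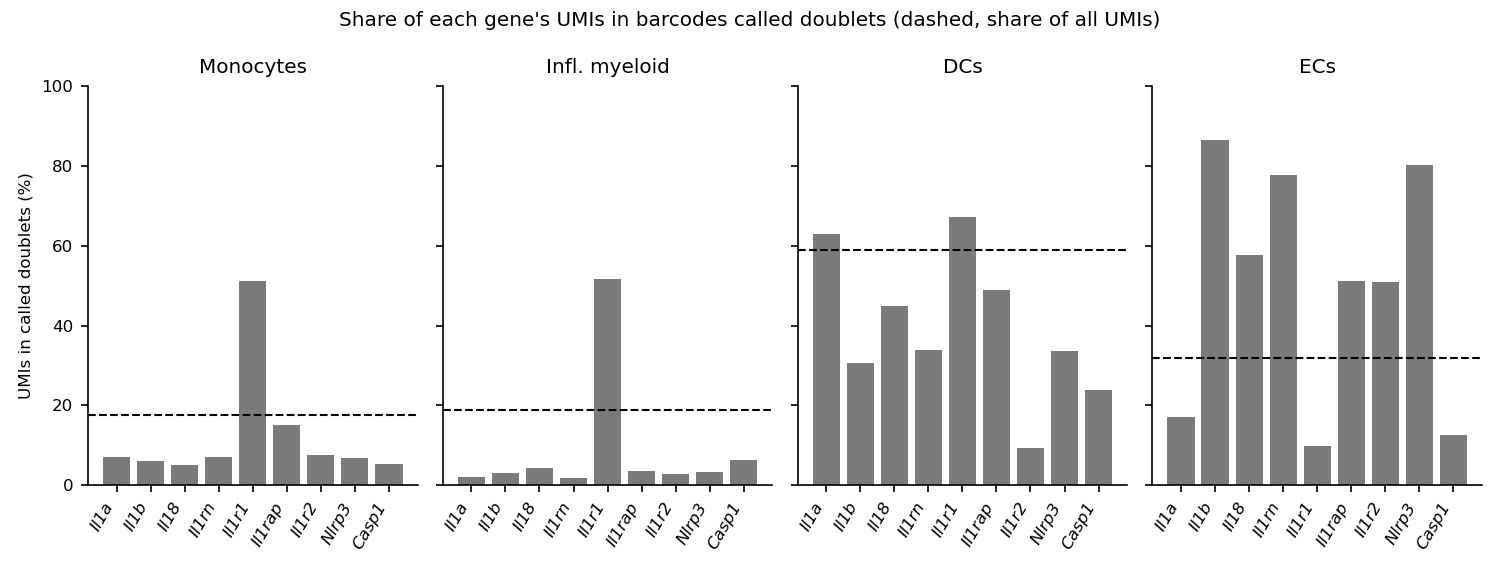
Percent of the UMIs of each gene that lay in barcodes called doublets, in ECs, monocytes, inflammatory myeloid cells and DCs over all 6 mice, with a dashed line at the percent of all UMIs in them. In ECs, Il1b (86.4%), Nlrp3 (80.3%) and Il1rn (77.7%) lie far above the line at 31.9%, and Il1r1 (9.76%) lies below it.

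ECs were divided among several clusters that differed in receptor and ligand. Il1r1 averaged 1687 ± 419 CPM in cluster 18, 1428 ± 57.4 CPM in cluster 8 and 1240 ± 267 CPM in cluster 2, against 276 CPM in cluster 15 and 238 CPM in cluster 16, where 46.2% of barcodes were called doublets. Il1a was 155 ± 34.2 CPM in cluster 8, 97.8 CPM in cluster 2, 62.4 CPM in cluster 18, 49.0 CPM in cluster 15 and 18.8 CPM in cluster 16. Among clusters 2, 8 and 18 the one with the highest mean of Il1r1 had the lowest mean of Il1a, with overlapping ranges over mice. Clusters 15 and 16 were below these 3 in the means of both genes. Cluster 24, with 2% of the ECs (229 cells) and 92.1% of them called doublets, held 65.1% of the Il1b UMIs of ECs and 2.37% of their Il1r1 UMIs.

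The 3 monocyte clusters shared Il1b but differed in its relatives. Il1b averaged 3905, 5077 and 4356 CPM in clusters 11, 12 and 13. Il1a was 879 CPM in cluster 13, against 360 CPM in cluster 11 and 257 CPM in cluster 12, and cluster 13, with 28.7% of the monocytes, held 51.6% of their Il1a UMIs. Il18 and Casp1 went the other way. Il18 averaged 28.0, 35.5 and 10.6 CPM, and Casp1 26.1, 36.3 and 12.0 CPM, in clusters 11, 12 and 13. Il1rn was lowest in cluster 12 (199 CPM, against 401 and 364 CPM). In the 3 control mice cluster 13 was 57.6, 23.1 and 51.5% of monocytes, against 38.1, 12.1 and 31.0% in the 3 stress mice.

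The cells labelled DCs fell into clusters 19 (779 cells) and 20 (777 cells). Cluster 20 had a high sum of the DC marker list (6267 to 10290 CPM per mouse). Cluster 19 had a low one (220 to 726 CPM) and tumor-cell markers at 522 to 815 CPM, near the 696 to 974 CPM of tumor cells. Over all DCs the largest of the list was H2-Aa (2498 CPM on average), an MHC class II gene. Ccr7 (294 CPM), Fscn1 (111 CPM), Flt3, Cd209a and Xcr1 were also highest in DCs. Clec9a (74.3 CPM) and Zbtb46 (131 CPM) of the same list were highest in ECs. Monocytes summed to 928.5 to 3488 CPM on this list. Of cluster 19, 37.2% of barcodes were called doublets, and these held 88.5% of its UMIs, against 2.45% of barcodes and 5.43% of UMIs in cluster 20. Il1b averaged 2297 CPM in cluster 20 and 688 CPM in cluster 19. Il1r2 averaged 490 and 41.3 CPM, and Il1a 13.8 and 69.1 CPM, in the same order. Without called doublets Il1r2 averaged 553 CPM in cluster 20 (277 to 1047 CPM) and 147 CPM in cluster 19 (82.8 to 274 CPM), a 3.77-fold difference, and Il1a averaged 14.1 and 148 CPM. Cluster 20 held 66.4% of the Il1b UMIs of DCs, 84.7% of their Il1r2 UMIs and 75.1% of their Casp1 UMIs, while cluster 19 held 87.3% of their Il1a UMIs.

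For each gene, the genes with the most similar levels were listed by Pearson's r of log2(CPM + 1) over 57 mouse and cell type units, among 8996 genes. These r describe units that share libraries and carry no p. The closest to Il1b were Ccr1 (0.951), Ccl6 (0.946) and Wfdc17 (0.946), and those to Il1rn were Ccr1 (0.962), Acod1 (0.960) and Ccl6 (0.945). Nlrp3 was closest to Ccl6 (0.939), Clec4e (0.936) and Wfdc17 (0.932), and Il1a to Pla2g7 (0.907), Sdcbp (0.884) and Nfe2l2 (0.861). Il1r2 was closest to Lilrb4b (0.928), Slfn1 (0.922) and Lilrb4a (0.916). Il1rap was closest to Cxcr2 (0.905), a chemokine receptor of neutrophils, Mirt2 (0.905) and Sgms2 (0.896). Il1r1 was closest to Dlc1 (0.945), Plpp3 (0.936) and Khdrbs3 (0.935). Casp1 stood with the interferon-response genes Tap1 (0.935), Nmi (0.932) and Gbp7 (0.925). Il18 had the weakest matches, Il6ra (0.766), Rnf149 (0.741) and Csf1r (0.733).

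Stress and control mice were then compared with edgeR's quasi-likelihood test on UMIs summed per mouse and cell type, with Benjamini-Hochberg adjustment over all genes tested in that cell type and a threshold of 0.05. Log2 fold changes are stress against control. Of 60 pairs of gene and cell type that could be tested, 1 passed, Il1b in DCs. By DESeq2, 3 passed, Il1b and Il1rn in DCs (3.43% of all genes there) and Il1b in monocytes (1.47%).

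In DCs, Il1b rose in stress mice. It was 356, 1002 and 687 CPM in control mice and 1961, 1616 and 1964 CPM in stress mice, and the groups did not overlap. The difference was 2.92-fold (log2 1.54, SE 0.27, adjusted p = 0.0122). Of all 10533 genes tested in DCs, 2.64% were called, against 1 of these 9. The antagonist Il1rn was 26.6, 60.4 and 35.2 CPM in control mice and 79.0, 69.7 and 150 CPM in stress mice, without overlap and just short of the threshold (log2 1.30, SE 0.32, adjusted p = 0.0503). It passed without control mouse 2 (adjusted p = 0.0191) or stress mouse 2 (adjusted p = 0.0226), and without called doublets, which held 34% of its UMIs, the groups overlapped (50.1, 108 and 72.0 CPM against 89.9, 124 and 214 CPM, adjusted p = 0.281). Casp1 was 7.08, 7.99 and 6.73 CPM in control mice and 13.4, 11.6 and 17.3 CPM in stress mice, again without overlap (log2 1.04, SE 0.31, adjusted p = 0.101). With Il1r1, 4 of 9 genes lay higher in every stress mouse than in any control mouse, as did 8.28% of all genes. Without called doublets, which held 67.1% of its UMIs in DCs, Il1r1 overlapped (7.71, 4.56 and 3.89 CPM against 24.2, 6.39 and 4.36 CPM). In DCs 3 of 9 genes had an unadjusted p under 0.05, against 17%. Nlrp3 (log2 0.37), Il1a (0.56) and Il1r2 (-0.16) overlapped.

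The call of Il1b in DCs was lost without called doublets, without stress mouse 3 and in either DC cluster alone. Without called doublets its log2 fold change was 1.20 with an adjusted p of 0.262, where 6 of 7399 genes rose past the threshold and 0 fell. The groups still did not overlap then, at 548, 2160 and 1315 CPM in control mice and 2517, 3076 and 2584 CPM in stress mice. Without stress mouse 3 the log2 fold change was 1.5 with an adjusted p of 0.0628, where 58 of 9737 genes rose past the threshold and 7 fell. Cluster 19 made up 74.7, 59.5 and 74.1% of the DCs of control mice and 49.6, 36.7 and 47.8% of those of stress mice, so cluster 20, where Il1b was higher, was a larger share of DCs in stress mice. Within cluster 20, Il1b was 740, 2260 and 1669 CPM in control mice and 3187, 3224 and 2702 CPM in stress mice (log2 1.05, SE 0.33, adjusted p = 0.202). Within cluster 19 it was 203, 576 and 409 CPM in control mice and 849, 654 and 1439 CPM in stress mice (log2 1.33, SE 0.33, adjusted p = 0.153, where 0.425% of all genes passed), and it passed without control mouse 2 (adjusted p = 0.0438) or stress mouse 2 (adjusted p = 0.0482). With all barcodes the groups did not overlap in either cluster. Without called doublets they overlapped in cluster 19 (255, 1483 and 840 CPM against 665, 1274 and 1488 CPM, log2 0.43). The clusters were tested apart after the values had been seen, and the part of cluster make-up and of doublets in the rise was not tested.

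Cluster 20 alone, with the higher sum of DC markers, showed a decoy receptor that lay lower in stress mice beside a ligand and an antagonist that lay higher. Il1r2 was 752, 437 and 750 CPM in control mice and 392, 272 and 338 CPM in stress mice, without overlap (log2 -0.86, SE 0.27, adjusted p = 0.202), as for 13.9% of all genes in this direction. Il1rn was 24.9, 72.7 and 33.9 CPM in control mice and 88.3, 119 and 185 CPM in stress mice (log2 1.49, SE 0.36, adjusted p = 0.108), and Casp1 was 12.4, 17.8 and 20.4 CPM and 23.0, 24.6 and 32.2 CPM (log2 0.72). Of 6 genes tested, 3 were higher without overlap, against 6.31% of all genes, and none passed the threshold (0.313% of all genes did), with 3 at an unadjusted p under 0.05 (13.4% of all genes) and 1 called by DESeq2, which called 1.35% of all genes. Without called doublets Il1rn passed in this cluster (log2 1.44, adjusted p = 0.0484). Same-numbered mice deviated together in this cluster (r of 0.349, 0.206 and 0.153), although no label pairs them. Some differently numbered mice did so about as much as the mice numbered 3. Control mouse 2 and stress mouse 3 reached 0.158, and control mouse 3 and stress mouse 2 reached 0.133. The block was chosen from these same counts. Blocked on the replicate number, Il1b (log2 1.15, adjusted p = 0.0143), Il1rn (1.52, adjusted p = 0.0118) and Il1r2 (-0.83, adjusted p = 0.0306) passed, where 2.65% of all genes passed. Control mouse 1 had 20 cells in this cluster.

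In monocytes, Il1b was higher in every stress mouse than in any control mouse but did not pass the threshold. It was 1659, 3684 and 2711 CPM in control mice and 4552, 5632 and 7642 CPM in stress mice (log2 1.21, SE 0.34, unadjusted p = 0.00769, adjusted p = 0.270, edgeR). Few genes passed in monocytes, 0.122% of 12251. Same-numbered mice, which no label pairs, deviated together in monocytes too, as did control mouse 2 and stress mouse 3 (r of 0.187, against 0.146 for the mice numbered 3). Blocked on that replicate number Il1b passed (log2 1.24, SE 0.20, adjusted p = 0.0351), as did 1.67% of all genes. DESeq2 also called it (adjusted p = 0.0226), and without called doublets its log2 fold change was 1.07 (adjusted p = 0.245).

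Of the other genes in monocytes, the antagonist Il1rn was 135, 358 and 175 CPM in control mice and 311, 392 and 620 CPM in stress mice, with overlap (log2 1.06, SE 0.40, adjusted p = 0.363). Il1a was 381, 372 and 414 CPM in control mice and 654, 312 and 874 CPM in stress mice, with stress mouse 2 below every control mouse (log2 0.72, SE 0.35, adjusted p = 0.456). Casp1 (log2 0.63, adjusted p = 0.398) and Nlrp3 (0.54, adjusted p = 0.411) overlapped between groups. Il1r2 was 109, 83.0 and 118 CPM in control mice and 58.0, 73.9 and 98.8 CPM in stress mice (log2 -0.36, adjusted p = 0.588), and Il18 differed by -0.088. Il1r1 did not overlap (log2 0.53, adjusted p = 0.407), but it was 0.21 without the called doublets that held 51.2% of its UMIs. In all, 5 of 9 genes had an unadjusted p under 0.05, against 12% of all genes, and 2 of 9 were higher without overlap, against 6.82%. The median log2 fold change of the 9 was 0.54, against -0.0055 over all genes tested. Marker sums of other cells also differed between monocytes of control and stress mice, untested. Neutrophil markers were lower in stress mice without overlap (797, 606 and 793 against 448.5, 175 and 527 CPM). Higher without overlap were NK/T cell markers (1.60, 33.75 and 12.9 against 37.65, 72.65 and 61.1 CPM). So were hepatocyte markers (0, 0.37 and 1.48 against 12.1, 11.2 and 18.7 CPM) and HSC markers (1.20, 2.09 and 1.48 against 16.8, 2.31 and 4.94 CPM). The sums that follow overlapped between the groups. The summed dissociation-response genes were 4533, 2795 and 4423 CPM in monocytes of control mice and 3119, 1460 and 2112 CPM in those of stress mice, and Spp1, Arg1 and Nos2 together 9490, 2940 and 7040 CPM against 6228, 1432 and 4392 CPM. Their part in these values was not tested.

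**Figure D3:**
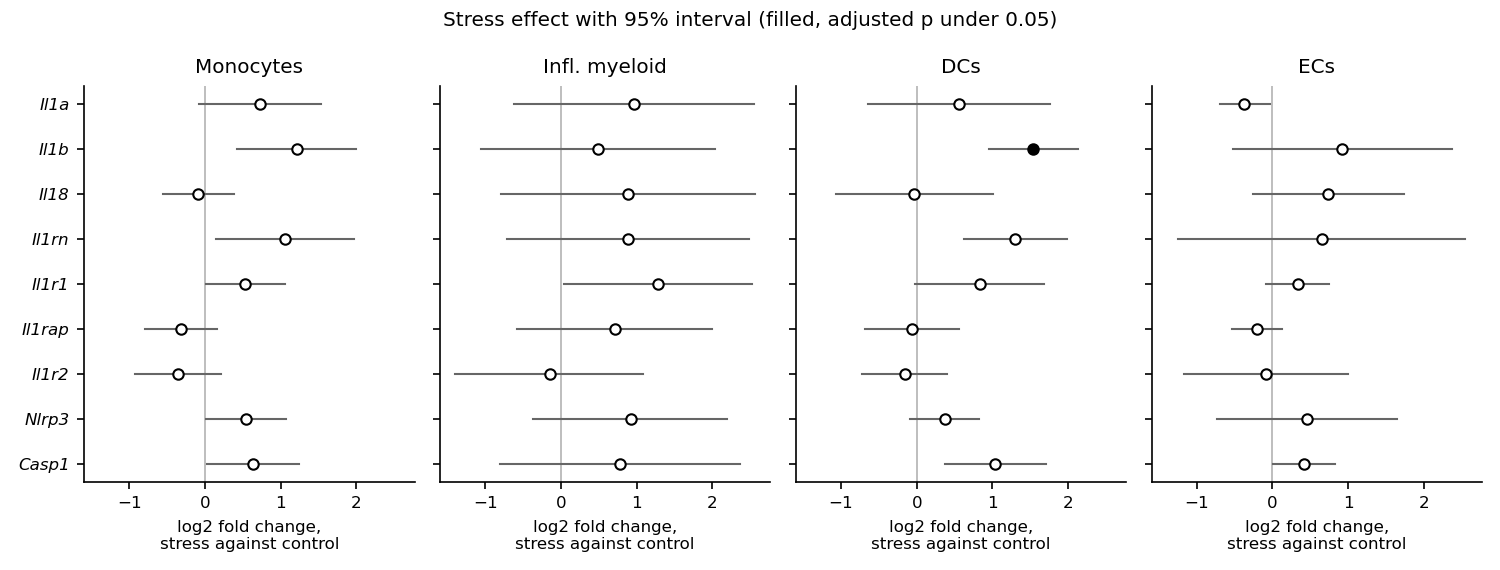
Log2 fold change of each gene, stress against control, with its 95% interval, in DCs, monocytes, inflammatory myeloid cells and ECs. Filled points passed the adjusted threshold, which only Il1b in DCs did (1.54), and the intervals in inflammatory myeloid cells are the widest of the 4 panels for Il1b (-1.06 to 2.04).

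Il1b was also compared within each monocyte cluster. In cluster 11 it was 1024, 3747 and 2201 CPM in control mice and 3844, 5654 and 6962 CPM in stress mice (log2 1.31, SE 0.44, adjusted p = 0.305). In cluster 12 it was 3365, 3874 and 3447 CPM against 5785, 5544 and 8445 CPM (log2 0.98, SE 0.21, adjusted p = 0.114), and in cluster 13 it was 1638, 3284 and 2534 CPM against 4884, 5805 and 7991 CPM (log2 1.36, SE 0.35, adjusted p = 0.274). The groups did not overlap in any of the 3 clusters. With equal numbers of cells per cluster the log2 fold change over monocytes was 1.06 (adjusted p = 0.206), and without cluster 13 it was 1.15 (adjusted p = 0.205), without overlap in either case. Same-numbered mice, which no label pairs, deviated together in cluster 13. Blocked on the replicate number Il1b passed there (log2 1.37, adjusted p = 0.0133), as did 1.57% of all genes.

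Of the 27 pairs of gene and monocyte cluster, none passed the threshold in edgeR, where 0.102, 0.218 and 0.0984% of all genes passed in clusters 11, 12 and 13. An unadjusted p under 0.05 was reached by 5, 5 and 4 of 9 genes, against 11.4, 13 and 8.69% of all genes, and DESeq2 called 2 pairs, Il1b in clusters 12 and 13 (1.18 and 0.896% of all genes). Higher without overlap were 3, 2 and 3 of 9 genes, against 7.06, 6.22 and 5.39% of all genes. Beside Il1b these were Il1rn (180, 397 and 196 CPM against 432, 509 and 691 CPM) and Il1r1 in cluster 11, Casp1 in cluster 12 (29.8, 31.5 and 32.6 CPM against 37.2, 44.5 and 42.2 CPM), and Casp1 and Nlrp3 in cluster 13. Il18 in cluster 12 was lower without overlap (36.4, 42.0 and 37.1 CPM against 32.4, 35.6 and 29.7 CPM, log2 -0.17), as were 12.1% of all genes there. Nlrp3 in cluster 13 was 338, 452 and 469 CPM in control mice and 628, 586 and 863 CPM in stress mice (log2 0.75, adjusted p = 0.460). Il1r1 in cluster 11 differed by 1.18, and by 0.73 without called doublets. Il1r2 in cluster 12 was 311, 40.4 and 173 CPM in control mice and 87.4, 28.1 and 56.1 CPM in stress mice, with overlap (log2 -1.54, SE 0.64, adjusted p = 0.345), and its value was -2.12 (adjusted p = 0.0388) without control mouse 2 and -0.90 without control mouse 1. Leaving out 1 mouse also brought Il1rn in cluster 11 past the threshold (without control mouse 2, log2 1.64, adjusted p = 0.0423), and Il1b in cluster 12 (without stress mouse 1, log2 1.08, adjusted p = 0.0487).

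**Figure D4:**
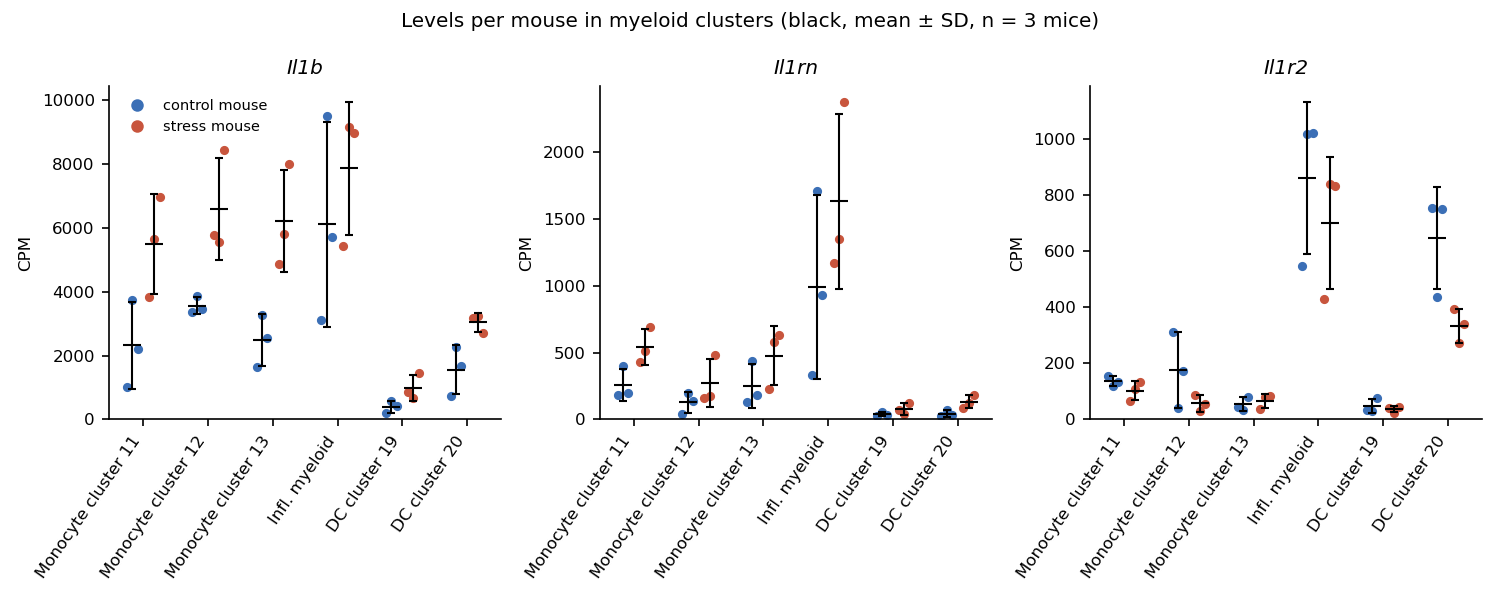
Levels per mouse (CPM) in monocyte clusters 11, 12 and 13 and DC clusters 19 and 20, control and stress mice side by side, with the mean and SD in black (n = 3 mice per group). With called doublets kept, Il1b is higher in every stress mouse than in any control mouse in all 5 clusters (in DC cluster 19 the groups overlap without them), and Il1r2 in DC cluster 20 is lower, at 272 to 392 CPM against 437 to 752 CPM.

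Inflammatory myeloid cells, with the highest Il1b level, showed no such separation. Their Il1b values in stress mice lay within the range of the control mice (log2 0.49, SE 0.70, 95% interval -1.06 to 2.04). This log2 fold change was 0.07 to 0.98 when each mouse was left out. No gene of 9219 passed in these cells in edgeR (365 genes, 3.96%, had an unadjusted p under 0.05, and DESeq2 called 6), and none of the 9 genes was without overlap, where 3% of all genes were higher and 4.4% lower without overlap. Il1rn (log2 0.89), Nlrp3 (0.92) and Il1a (0.97) had intervals that reached below 0, as did Il1r2 (-0.15), and the value of Il1rn was 0.17 without stress mouse 3 and 1.52 without control mouse 2. Il1r1 was the 1 of 9 with an unadjusted p under 0.05, at 8.51, 12.2 and 5.75 CPM in control mice and 6.96, 21.7 and 23.98 CPM in stress mice (log2 1.28, 95% interval 0.047 to 2.52, adjusted p = 0.994), with 51.6% of its UMIs in called doublets. Control mouse 1 stood low for most members here, with 7.18% called doublets, tumor-cell markers at 490 CPM and the lowest sum of inflammatory markers (26770 CPM, against 38340 to 55370 CPM in the other mice). The part of these in the spread was not tested. The interval of Il1b spans the difference seen in monocytes, so the data do not show that the cell types responded differently.

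In ECs, the receptor Il1r1 overlapped between the groups (log2 0.34, SE 0.18, adjusted p = 0.412). The ligand Il1a had a lower mean in stress mice (74.4 ± 6.99 CPM, against 94.2 ± 14.3 CPM in control mice, SD, n = 3 each), with overlap and an unadjusted p of 0.0367 (log2 -0.37, SE 0.14, adjusted p = 0.293). Casp1 was 9.55, 7.96 and 11.4 CPM in control mice and 12.9, 12.7 and 13.7 CPM in stress mice, the only 1 of 9 genes without overlap, where 12.5% of all genes were higher without overlap (log2 0.42, adjusted p = 0.312). None of the 9 passed in edgeR, where 0.213% of all genes passed, 2 had an unadjusted p under 0.05 (15.6% of all genes did), and DESeq2 called none. Il1b in ECs differed by 0.92 with all barcodes and by 0.032 without called doublets.

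In the remaining cell types none of the members passed, by edgeR or DESeq2. NK/T cells had 8 genes tested, of which Il1a (log2 2.20), Il1b (1.92) and Nlrp3 (1.78) had an unadjusted p under 0.05 and adjusted p of 0.302 to 0.367, where 13.1% of all genes had such an unadjusted p and 0.857% passed. Their Il1b was 0, 50.5 and 17.4 CPM in control mice and 14.9, 50.4 and 270 CPM in stress mice, so the difference came mainly from stress mouse 3. M-MDSCs had 6 genes tested and 0.561% of all genes called, and B cells had Il1b alone (log2 2.06, adjusted p = 0.373) with 0.483% called. Tumor cells had all 9 tested and 0 called, none of them at an unadjusted p under 0.05, where 37.4% of all genes had such a p and 21.4% passed.

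Whether the effect of stress differed between cell types was tested as an interaction with the mouse as a term, for monocytes against inflammatory myeloid cells, DCs and ECs. Of 27 contrasts none passed in edgeR (0.00829, 0 and 0% of all genes passed), 2 had an unadjusted p under 0.05, and DESeq2 was not run on the interaction. The effect on Il1b was 0.66 higher in monocytes than in inflammatory myeloid cells (95% interval -0.33 to 1.64) and 0.42 lower in them than in DCs (SE 0.20, unadjusted p = 0.0515, adjusted p = 0.972). The smallest p belonged to Il1rap against inflammatory myeloid cells (log2 difference -1.19, unadjusted p = 0.0238, adjusted p = 1), followed by Il1a against ECs (0.89, unadjusted p = 0.0348, adjusted p = 0.561).

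The share of cells that carried Il1b and the amount per carrying cell were compared next. Each cell was thinned to 1000 UMIs so that depth did not set the share. Among monocytes of the 3 control mice, 54.8, 82.2 and 64.1% had a UMI of Il1b, against 72.9, 85.8 and 88.2% in the 3 stress mice, with overlap (67.0 ± 13.9% against 82.3 ± 8.23%, two-sided exact permutation test over 6 mice, p = 0.2, adjusted p = 0.2). Unthinned, the shares were 78.7 ± 9.93% and 90.1 ± 6.35%. Among inflammatory myeloid cells these were 81.1, 89.6 and 76.4%, against 83.2, 94.6 and 92.8% (82.4 ± 6.67% against 90.2 ± 6.15%, exact permutation p = 0.2), and unthinned 82.5 and 91.8%. Tumor cells reached 0.204 to 2.82% after thinning and 5.16 to 45.3% before it, at a median of 27716 UMIs per cell against 5291 in monocytes and 1547 in inflammatory myeloid cells. Thinning takes most from the deepest cells, so the thinned tumor share is not a floor for free RNA in shallower cells. Free RNA was not measured. Thinning left out 51 control and 38 stress monocytes, and 734 (20.7%) control and 250 (9.08%) stress inflammatory myeloid cells.

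The amount of Il1b in the monocytes that carried it was compared as well. The mean number of Il1b UMIs per monocyte with at least 1, after thinning, was 4.19, 5.36 and 4.81 for the control group, against 7.83, 7.30 and 9.22 for the stress group, and the groups did not overlap. The means were 4.79 ± 0.587 and 8.11 ± 0.991 (two-sided exact permutation test, p = 0.1, the smallest that 3 against 3 mice allow, adjusted p = 0.2), a measure added after the data were seen. In inflammatory myeloid cells the means were 10.3 ± 2.49 and 10.8 ± 1.92 (exact permutation p = 0.6). Tumor cells held 1 to 1.16.

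**Figure D5:**
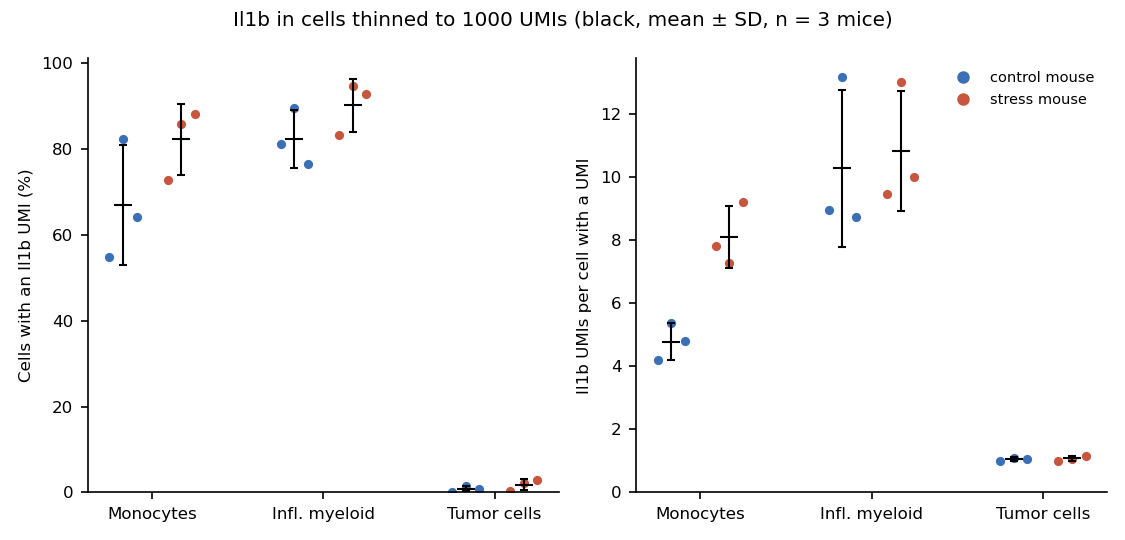
Percent of cells with a UMI of Il1b and mean Il1b UMIs per cell with at least 1, each cell thinned to 1000 UMIs, per mouse, with the mean and SD in black (n = 3 mice per group). The shares overlap between groups, while UMIs per positive monocyte are 4.19 to 5.36 in control mice and 7.30 to 9.22 in stress mice.

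The same thinning gave shares for other members, with the same limit for tumor cells. Il1r1 was found in 58.2% of ECs (86.2% unthinned) and 0.577% of tumor cells (11.9% unthinned). Il1r2 was found in 49.5% of inflammatory myeloid cells, 18.7% of DCs and 7.58% of monocytes. Nlrp3 was found in 54.3% of inflammatory myeloid cells and 34.8% of monocytes, and Il1a in 29.9% and 28.8% of them and in 8.90% of ECs, against 0.256% of tumor cells. Casp1 was found in 2.69% of monocytes and 3.08% of NK/T cells, against 0.0133% of tumor cells.

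The balance of ligand and antagonist was compared in the 2 myeloid types with the most Il1b. The log2 ratio of Il1b to Il1rn UMIs in monocytes was 3.62, 3.37 and 3.95 for the control group, against 3.87, 3.84 and 3.62 for the stress group (3.65 ± 0.294 against 3.78 ± 0.136, two-sided exact permutation p = 0.6). In inflammatory myeloid cells it was 3.23, 2.48 and 2.61, against 2.22, 2.77 and 1.91 (2.77 ± 0.401 against 2.30 ± 0.432, exact permutation p = 0.3, adjusted p = 0.6). Every monocyte value lay above every inflammatory myeloid value, so that monocytes held more Il1b per Il1rn in all 6 mice. Taken per cell instead, the mean percent of Il1b in the UMIs of both genes was 84.5 ± 2.42% and 88.6 ± 2.37% in monocytes of control and stress mice (exact permutation p = 0.1, the smallest possible here, adjusted p = 0.2), and 73.8 ± 5.01% and 74.1 ± 7.12% in inflammatory myeloid cells (exact permutation p = 0.9).

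A list of 63 other genes of the pathway was followed in the same tests (further IL-1 family ligands, receptors and co-receptors, receptor signaling, inflammasome sensors and adaptors, pyroptosis effectors and genes known to respond to IL-1). In DCs, 43 were tested, 2 rose and none fell, where 2.64% of all genes passed. Ptgs2, the inducible cyclooxygenase, was 110, 86.8 and 114 CPM in control mice and 322, 133 and 318 CPM in stress mice (log2 1.44, SE 0.30, adjusted p = 0.0280). Nfkb1, an NF-κB subunit, was 232, 551 and 405 CPM in control mice and 661, 727 and 885 CPM in stress mice (log2 1.03, SE 0.24, adjusted p = 0.0409). Both lay higher in every stress mouse than in any control mouse, but each call was kept in only 1 of the 6 fits that left out 1 mouse. Without called doublets neither passed (Ptgs2 log2 0.98, adjusted p = 0.181, and Nfkb1 0.91, adjusted p = 0.358). In cluster 20, with the higher sum of DC markers, both overlapped between groups (Ptgs2 log2 0.70, adjusted p = 0.414, and Nfkb1 0.55, adjusted p = 0.551). The median of the list in DCs was 0.14, against -0.016 over all genes.

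In monocytes (52 tested), inflammatory myeloid cells (44) and ECs (49) none of the list passed in edgeR. An unadjusted p under 0.05 was reached by 9, 5 and 11 of them, against 12, 3.96 and 15.6% of all genes, and DESeq2 called 3, 0 and 5, against 1.47, 0.0651 and 3.02% of all genes. In monocyte cluster 12, where 0.218% of all genes passed, 1 of 44 rose, Mefv, which encodes the inflammasome sensor pyrin, from 49.7, 47.2 and 46.2 CPM in control mice to 95.5, 117 and 117 CPM in stress mice (log2 1.32, SE 0.19, adjusted p = 0.0197), a call kept in 2 of the 6 fits that left out 1 mouse. Over all monocytes Mefv was 17.6, 22.2 and 28.2 CPM against 40.4, 70.0 and 57.8 CPM, without overlap (log2 1.35, adjusted p = 0.130). Ptgs2 in monocytes was 382, 616 and 567 CPM against 1620, 849 and 2160 CPM, also without overlap (log2 1.63, adjusted p = 0.180). The other large values in monocytes were those of the cytokine gene Csf2 (log2 2.90, adjusted p = 0.300), Il18r1 (1.56), Il33 (1.52) and Cxcl1 (1.13), none of which passed. Csf2 (10.7 ± 10.9 CPM, SD), Il18r1 (2.44 CPM) and Il33 (4.98 CPM) were low even in stress mice.

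In inflammatory myeloid cells the largest values were those of P2rx7, the ATP-gated channel that activates NLRP3 (log2 2.22), Mefv (1.91), Csf3 (1.79), Nfkb1 (1.79), Irak3 (1.14) and Pycard, the inflammasome adaptor ASC (-1.01), all with an adjusted p of 0.994. In ECs they were those of Il1rl2 (1.78, adjusted p = 0.164), Ptgs2 (1.19), Lcn2 (-1.04), Il18r1 (1.04), Nfkbia (-0.84) and Cxcl1 (-0.78). Il1rl2, Lcn2 and Il18r1 were low there (5.86, 4.68 and 2.59 CPM on average in stress mice). Nfkbia, the NF-κB inhibitor that NF-κB itself induces, was 748, 617 and 705 CPM in ECs of control mice and 437, 334 and 402 CPM in those of stress mice, without overlap (SE 0.15, adjusted p = 0.0941).

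Tumor cells, where 21.4% of all genes passed, had 56 genes of the list tested, of which 5 rose and 4 fell. P2rx7 rose from 3.06, 3.20 and 3.74 CPM to 7.30, 9.59 and 9.88 CPM (log2 1.27, adjusted p = 0.00418). Nlrc4, an inflammasome sensor of bacterial proteins, fell from 16.6, 14.2 and 15.9 CPM to 7.34, 7.93 and 5.90 CPM (log2 -1.28, adjusted p = 0.00405). Nlrp12 (log2 2.24), Nlrp1a (2.20), Ccl2 (1.32) and Il33 (1.01) rose, and Ninj1 (-0.42), Aim2 (-0.38) and Panx1 (-0.34) fell, at low levels of Nlrp12 and Nlrp1a (1.14 and 0.483 CPM in stress mice). The calls of P2rx7, Nlrc4, Nlrp12 and Nlrp1a were kept in all 6 fits that left out 1 mouse, and those of the other 5 in 1 or 2 of 6. B cells (20 tested), M-MDSCs (37) and NK/T cells (42) had none past the threshold in edgeR or DESeq2, with 2, 8 and 8 at an unadjusted p under 0.05, against 11.1, 9.56 and 13.1% of all genes.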

How the data were processed

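Tumors of 3 control and 3 stress mice were profiled with 10x Genomics libraries, 1 per mouse. Raw UMI counts for each gene in each cell were deposited by the authors without normalization, with an annotation of mouse, cluster and cell type. Per the file headers, Cell Ranger 9.0.0 counted the control libraries and 7.1.0 the stress libraries. The labels name the genome build mm10, and the gene annotation used for counting is not given in the sources used here. The study's methods state that Scrublet doublets had been removed, but the calls here, by scanpy 1.11.5, still marked 3.09 to 6.44% of the annotated cells of a mouse, which were kept except in an alternative.

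Counts of a cell type or cluster were added up within a mouse, where each mouse had at least 10 cells, and compared in R 4.3.3 by edgeR 4.0.16 (quasi-likelihood test, filterByExpr, TMM, Benjamini-Hochberg over all genes tested, threshold 0.05). Shares and ratios were compared by exact permutation over mice under Python 3.11.15 (scipy 1.17.1, numpy 2.4.6, pandas 2.3.3, with figures by matplotlib 3.10.9). Alternatives were DESeq2 1.42.0, RLE size factors, no filter on low counts, leaving out each mouse, no called doublets, no top 5% of cells by UMIs, cluster choices and the replicate block. The labels number the mice of both groups and state no pairs. Correlations of deviations from the group mean between same-numbered mice were all over 0.1 only in monocytes (0.476, 0.422 and 0.146), monocyte cluster 13 (0.404, 0.421 and 0.297) and DC cluster 20 (0.349, 0.206 and 0.153). Blocked fits are printed there, a choice made from the same data. In inflammatory myeloid cells these correlations were 0.665, 0.0965 and 0.482. In monocytes control mouse 2 and stress mouse 3, with different numbers, reached 0.187. In DC cluster 20 the same 2 mice reached 0.158, and control mouse 3 and stress mouse 2 reached 0.133. The fit was tested on simulated data with known changes.

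Promoter windows are RefSeq's, 1 or more per gene for all 9 genes. Named genes are the 9, the list genes past the threshold (up to 8 per cell type by size) and the 6 with the largest change in monocytes, inflammatory myeloid cells and ECs, markers, and the 3 most alike per gene. Panx1 was named after its values were seen. The genes and lists were chosen with earlier results of these data known. Median depth was 7166 to 20478 UMIs per cell, and intervals over 3 mice per group limit the precision. The p-values measure the spread between mice.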

Additional observations from a re-analysis of the deposited data

How the results depend on the processing

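The count of members called by cell type, 1 as reported, was 9 without a filter on low counts, 3 with the replicate block, 3 by DESeq2, 0 without called doublets and 0 to 2 when each mouse was left out. Over the same cell types 4.97% of all genes were called as reported, 3.6% without a filter, 7.11% with the block and 6.84% by DESeq2. By monocyte cluster, 0 as reported, it was 10 without a filter, 4 with the replicate block, 2 by DESeq2 and 0 to 2 when each mouse was left out, where 0.136, 2.03, 1.78 and 1.08% of all genes were called as reported, without a filter, with the block and by DESeq2. Among the other genes of the pathway, 12 as reported, it was 59 without a filter, 26 with the replicate block, 24 by DESeq2 and 4 to 19 when each mouse was left out. These counts cover cell types and monocyte clusters together, with the shares of all genes as above. Of the 12, 9 were in tumor cells, where 2258 genes rose and 1783 fell of 18856. When each mouse was left out, tumor cells had 735 to 2968 genes that rose and 456 to 2822 that fell. DCs, where the 1 member call lay, then had 58 to 245 genes that rose and 7 to 109 that fell. A monocyte cluster had 3 to 36 that rose and 0 to 59 that fell. Without called doublets 6 of 7399 genes rose in DCs and 0 fell. In DCs the count of members called was 0 for cluster 19 only and 0 for cluster 20 only, alternatives chosen after seeing the data. The log2 ratio of Il1b to Il1rn in monocytes differed between groups by -0.00603 to 0.287 when each mouse was left out, and in inflammatory myeloid cells the mean over cells of the share of Il1b was 0.241 percentage points higher in stress mice, a reversal, while in monocytes it was 4.15 points higher. Il1rn in ECs ranged from -0.14 to 1.31 when each mouse was left out. Of 424 values of 34 single log2 fold changes, 393 kept direction and side of the threshold, 26 crossed it upward, 4 dropped below it and 1 reversed. The share and ratio tests are not in this count. No interaction contrast was called in any alternative run. The mice shared only a number that no label makes a pair, so all block results count as the block's value alone. The causes were not tested. Casp1 and Il18 had few counts, with 2902 and 2738 UMIs in all.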
